A study of Mus musculus with 19 samples.

Results

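The genes described here encode the secreted ligands of WNT signalling, their receptors, their secreted antagonists and amplifiers, and the pathway readouts Axin2 and Lef1. They were chosen by name: every gene symbol starting with Wnt or Fzd and a digit, Sfrp1 to Sfrp5, Dkk1 to Dkk4, Rspo1 to Rspo4, and Frzb, Wif1, Axin2, Lef1, Lrp5 and Lrp6. This gave 48 of the 30063 genes measured by a probe set with a single gene symbol, each by 1 probe set. They comprised 19 WNT ligands, 10 frizzled receptors, 2 co-receptors, 4 R-spondins, 5 secreted frizzled-related proteins (Frzb among them), 4 Dickkopf proteins, Wif1, Axin2 and Lef1. The remaining gene, Fzd10os, is a non-coding transcript beside Fzd10 that was matched only through its updated symbol, so 47 members encode proteins.

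RNA of the infrarenal aorta was measured on 1 Affymetrix Clariom D array per mouse, in C57BL/6J mice operated at 10 weeks of age and killed 7 days later. The 7 male PPE and 4 female PPE aortae had been infused for 5 min at 120 mmHg with saline holding type I porcine pancreatic elastase at 2.5 U/mL, which digests elastin and leads to an aneurysm of the infused segment. The 5 male sham and 3 female sham aortae had been clamped, cut open and infused with saline alone, so every group had surgery and none of the mice was unoperated. Values are log2 intensities as deposited, and a difference of 1 means a 2-fold change; every fold change below is 2 to the power of such a difference.

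The median of the 65956 probe sets ran from 5.61 to 5.85 on the male arrays and from 6.17 to 6.31 on the female arrays, so levels are compared only within a sex. The labels do not say whether the male and female arrays were run together. The 10 smooth muscle markers of the aortic wall were above the background level in each group. They averaged 10.60 to 11.60 per array in male PPE, against 12.15 to 13.09 in male sham, and 11.35 to 11.92 in female PPE, against 12.58 to 12.85 in female sham aortae. In males 9 of the 10 were called lower and in females 6. Pericyte markers were lower in 6 of 8 in males and 4 of 8 in females, and T and NK cell markers were higher in 10 of 10 in males and 9 of 10 in females. The 10 macrophage markers averaged 13.26 to 14.09 per array in male PPE, against 11.39 to 13.04 in male sham, with 8 called higher. They averaged 13.43 to 14.12 in female PPE, against 12.98 to 13.21 in female sham, with 1 called higher. The part of these cell types in the results below was not tested, and in whole tissue fewer cells of a type and less RNA per cell cannot be told apart. Male sham 4 stood apart with a mean of 12.74 over 10 adipocyte markers, where the remaining male sham arrays had 7.89 to 8.83. Male sham 4 and 5 differed from the other male sham arrays in clock genes, as given below with Sfrp1.

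WNT proteins are lipid-modified ligands that act over short distances. In the beta-catenin branch a ligand joins a frizzled receptor to the co-receptor LRP5 or LRP6, which stops the destruction of beta-catenin and lets it activate genes together with TCF and LEF factors. Other branches use frizzled receptors without LRP5 or LRP6 to control cell polarity and calcium. Secreted frizzled-related proteins and Wif1 bind the ligands, Dickkopf 1, 2 and 4 bind the co-receptors, and R-spondins keep frizzled receptors at the cell surface. In the embryo and in the vessels of the brain and retina this pathway shapes endothelium and mural cells.

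Of the 48 genes 31 had promoter windows in the RefSeq table of GRCm38.p6, which run from 250 bases before to 50 bases after a transcript's start. The windows of Fzd4, Fzd7, Axin2 and Lef1 are shown because the first 3 fell together in males and Lef1 moved the other way. Lef1 is one of the TCF and LEF factors that carry the pathway to DNA, and others are given below. This choice was made after the values were seen. All 4 are given 5′ to 3′ on the plus strand: chr7:89404116-89404415 for Fzd4, chr1:59481897-59482196 for Fzd7, chr11:108920099-108920398 for Axin2 and chr3:131110047-131110346 for the most upstream of the 4 windows of Lef1. Capitals mark the GC box, the letters GGGCGG or their reverse complement CCGCCC, with overlapping matches counted.
Fzd4: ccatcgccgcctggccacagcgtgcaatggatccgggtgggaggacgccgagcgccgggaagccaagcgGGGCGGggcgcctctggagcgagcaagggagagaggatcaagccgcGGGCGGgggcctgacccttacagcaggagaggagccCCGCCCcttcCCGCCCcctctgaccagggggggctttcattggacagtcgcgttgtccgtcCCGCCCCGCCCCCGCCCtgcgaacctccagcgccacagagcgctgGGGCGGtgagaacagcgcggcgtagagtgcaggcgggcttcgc
Fzd7: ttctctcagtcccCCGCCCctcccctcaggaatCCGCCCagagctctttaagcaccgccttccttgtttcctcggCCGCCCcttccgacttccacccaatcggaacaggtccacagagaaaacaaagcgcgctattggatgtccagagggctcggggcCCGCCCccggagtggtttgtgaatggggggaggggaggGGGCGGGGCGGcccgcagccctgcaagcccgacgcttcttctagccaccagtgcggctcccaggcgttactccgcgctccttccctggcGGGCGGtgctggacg
Axin2: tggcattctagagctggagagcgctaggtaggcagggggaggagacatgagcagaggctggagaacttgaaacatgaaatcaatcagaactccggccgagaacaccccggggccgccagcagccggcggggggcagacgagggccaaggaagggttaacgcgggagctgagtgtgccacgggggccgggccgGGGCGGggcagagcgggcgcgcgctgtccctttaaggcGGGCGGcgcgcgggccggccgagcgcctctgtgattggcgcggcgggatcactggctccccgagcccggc
Lef1: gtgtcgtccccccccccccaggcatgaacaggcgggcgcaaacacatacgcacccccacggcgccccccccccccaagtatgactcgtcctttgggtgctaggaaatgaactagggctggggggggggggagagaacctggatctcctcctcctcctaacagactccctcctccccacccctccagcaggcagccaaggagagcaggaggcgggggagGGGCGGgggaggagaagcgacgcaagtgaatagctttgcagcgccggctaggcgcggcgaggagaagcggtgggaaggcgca
The Fzd4 window held 8 GC boxes, that of Fzd7 held 7, that of Axin2 held 2 and that of Lef1 held 1. The TCF and LEF core, searched as CTTTGAT or its reverse complement ATCAAAG, was in none of these 4 windows. It was in 2 of the 37 windows of the 31 genes (5.41%), those of Wnt11 and Wnt5b, and in 3.73% of all 32851 windows. The GC box was in 28 of the 37 windows (75.7%) and in 35.7% of all windows. These matches describe letters in the reference genome and were not measured in the aortae.

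Most of the receptor genes fell after PPE in males. Of the 12 frizzled and LRP genes, 7 were lower after PPE in males and 5 were not called, and 2 were lower in females. A gene was called when its Benjamini-Hochberg adjusted p from limma, over all 30063 genes, was below 0.05. Over all genes tested 9.97% were called lower and 9.69% higher in males, and 1.46% lower and 2.79% higher in females. The median log2 difference of the 12 receptors was −0.41 in males and −0.15 in females, beside 0.01 and −0.02 over all genes. The members were chosen with earlier results of these data known, so these shares describe the receptors and test nothing further.

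The co-receptor gene Lrp5 (chromosome 19, 3584825 to 3686585, GRCm38.p6) was lower after PPE in both sexes. It ranged from 8.79 to 9.18 with a median of 8.81 in the 7 male PPE aortae, against 9.69, 9.84, 9.66, 9.38 and 9.77 in male sham. In females it was 9.68, 9.69, 9.58 and 9.74 after PPE, against 10.31, 10.18 and 9.99 after sham. The groups did not overlap in either sex. The log2 difference was −0.74 ± 0.09 in males (SE, n = 7 and 5, 1.67-fold, adjusted p = 1.48e-05) and −0.49 ± 0.12 in females (n = 4 and 3, 1.40-fold, adjusted p = 0.0272). The female call was lost with each array centred on its median (adjusted p = 0.117) and with same-numbered arrays of a sex fitted as a replicate block (0.0821). It was also lost without female sham 1 (0.152), female sham 2 (0.111), female PPE 1 (0.067), female PPE 2 (0.0582) or female PPE 3 (0.0836).

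Its relative Lrp6, the co-receptor on which most beta-catenin signalling depends in the embryo, was called lower in males. Male PPE aortae ranged from 12.36 to 12.79 with a median of 12.62, against 13.27, 13.12, 13.29, 12.56 and 12.81 in male sham. The male groups overlapped because male sham 4 lay among the PPE arrays. Female PPE aortae had 12.68, 12.91, 12.66 and 12.81, all below the 13.19, 13.34 and 13.19 of female sham. PPE and sham differed by −0.41 ± 0.12 in males (adjusted p = 0.0193) and −0.47 ± 0.15 in females (adjusted p = 0.101). The male call was lost with median centring (0.0963), with the replicate block (0.101) and with only the male arrays fitted (0.0607). It was also lost without male sham 1 (0.0677) or male sham 3 (0.0572). In females Lrp6 was called without male sham 4 (adjusted p = 0.0359), an array that enters the female test only through the shared variance. It was also called there without male sham 4, male sham 5 and male PPE 1 (0.00828) and with only the female arrays fitted (0.0196). Quantile normalization of all arrays (0.0463) or within each sex (0.0499) and array weights (0.00255) gave the call too, and the remaining alternatives did not.

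Among the frizzled receptors Fzd4, which also binds norrin and is needed for the vessels of the retina, fell in males. Its values were 10.29 to 11.02 with a median of 10.93 in male PPE, against 11.93, 11.86, 11.36, 11.70 and 11.83 in male sham, without overlap. In females they were 11.64, 11.86, 11.56 and 11.97 after PPE, against 12.28, 12.47 and 12.15 after sham, also without overlap. This was a log2 difference of −0.92 ± 0.13 in males (1.89-fold, adjusted p = 4.39e-05) and −0.54 ± 0.17 in females (adjusted p = 0.0814). The female difference was called without male PPE 1 (adjusted p = 0.0247) and without male sham 4, male sham 5 and male PPE 1 (0.0252). It was also called with quantile normalization of all arrays (0.0482) or within each sex (0.0391), with array weights (0.00511) and with only the female arrays fitted (0.0421). In 23 of the 29 alternative fits it was not called.

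Fzd8, a receptor of the beta-catenin branch, fell by nearly the same amount in both sexes. It ranged from 6.31 to 7.18 with a median of 6.94 in male PPE, against 7.99, 7.69, 7.64, 7.63 and 8.30 in male sham. Female aortae had 7.89, 7.60, 7.86 and 8.33 after PPE, against 8.67, 9.34 and 8.68 after sham. Every PPE array lay below every sham array of its sex. PPE and sham differed by −0.94 ± 0.17 in males (1.92-fold, adjusted p = 0.000525) and −0.98 ± 0.22 in females (1.97-fold, adjusted p = 0.0166). The female call was lost without female sham 2 (0.129), female PPE 2 (0.0558) or female PPE 3 (0.0508), and with the replicate block (0.0952).

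Fzd7 and Fzd2, close relatives with intronless coding regions in the mouse, fell in males by less than 2-fold. Fzd7 ranged from 9.15 to 9.37 with a median of 9.28 in male PPE, against 9.81, 9.87, 9.73, 9.58 and 10.15 in male sham (log2 difference −0.55 ± 0.08, adjusted p = 9.5e-05). Fzd2, a receptor for WNT5A, ranged from 9.67 to 10.06 with a median of 9.75 in male PPE, against 10.12, 10.09, 10.29, 10.10 and 10.56 in male sham (−0.41 ± 0.10, adjusted p = 0.00482). Neither gene's male groups overlapped, and the Fzd2 call was lost with the replicate block (adjusted p = 0.0641). In females Fzd7 had 9.64, 9.79, 9.89 and 9.72 after PPE, against 9.87, 9.79 and 10.05 after sham (−0.14 ± 0.11, adjusted p = 0.647). Fzd2 had 9.91, 9.71, 9.96 and 9.98 in female PPE aortae, against 10.12, 9.82 and 10.04 in female sham (−0.10 ± 0.13, adjusted p = 0.821), and the female groups of both genes overlapped. For Fzd7 the male minus the female response was −0.40 ± 0.14, with a 95% interval from −0.69 to −0.12. By limma over all genes this difference had an adjusted p of 0.243 (unadjusted 0.00822).

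Fzd6, which acts in planar polarity, completed the receptors called in males. It ranged from 9.08 to 9.61 with a median of 9.45 in male PPE, against 10.19, 10.32, 9.94, 9.49 and 9.66 in male sham, so that male sham 4 lay among the PPE arrays. Among females the values were 10.16, 10.12, 9.81 and 10.01 after PPE, against 10.70, 10.63 and 10.19 after sham. This was a log2 difference of −0.53 ± 0.14 in males (adjusted p = 0.0114) and −0.48 ± 0.18 in females (adjusted p = 0.181). The male call was lost with median centring (0.0539) and with the replicate block (0.0816). The female difference in Fzd6 was called with quantile normalization within each sex (0.0485) and with array weights (0.0162), and not in the remaining alternatives.

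The 5 remaining frizzled receptors were not called in either sex, with log2 differences of −0.18 to 0.22 in males and −0.15 to 0.38 in females. Fzd1, another close relative of Fzd2 and Fzd7, had a mean of 10.11 ± 0.23 in male PPE and 10.12 ± 0.20 in male sham (SD), with a 95% interval of the difference from −0.25 to 0.25. Fzd5 was at −0.02 in males and 0.38 in females, with an interval in females from −0.06 to 0.82. Fzd3 was at −0.18 in males (adjusted p = 0.0966) and Fzd9 at 0.22. Fzd3 was called lower in males without male sham 5 (0.0201), without male sham 4, male sham 5 and male PPE 1 (0.0228) and with array weights (0.0207). Fzd10 was dim in every group, under the level below which 95% of 1225 olfactory receptor genes lay. That level was used here as a working estimate of the background. It averaged 5.66 in male PPE, 5.81 in male sham, 6.44 in female PPE and 6.44 in female sham arrays. Fzd10os, the transcript beside Fzd10, was dim as well, with differences of 0.08 in males and 0.0025 in females.

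**Figure D1:**
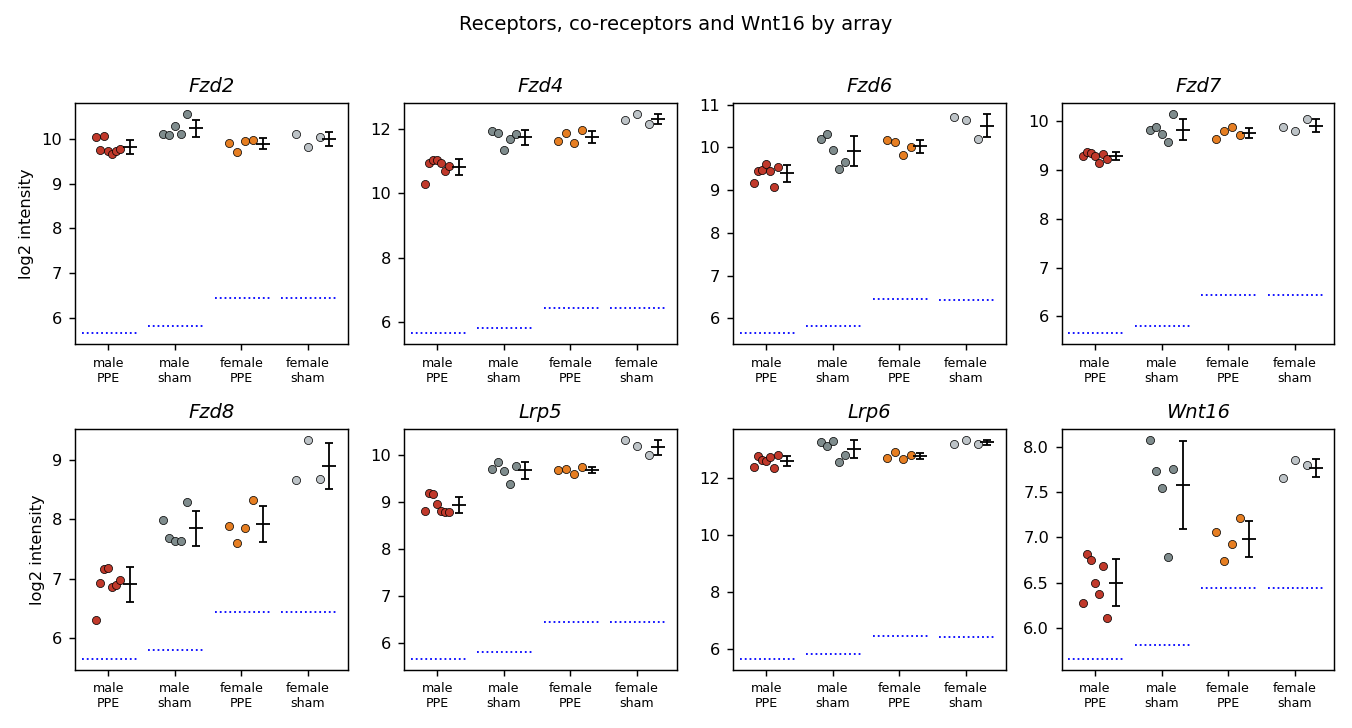
Log2 intensity of the 7 receptor and co-receptor genes called in males and of Wnt16, with 1 point per array, for male PPE, male sham, female PPE and female sham aortae. Black bars show the mean and SD, and blue dotted lines the mean background level of each group; in males the PPE points lie below all sham points for Fzd2, Fzd4, Fzd7, Fzd8 and Lrp5, and overlap them for Fzd6, Lrp6 and Wnt16.

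Most WNT ligands were at background in these aortae, and Wnt16 was the ligand with a marked fall. Of the 19 ligand genes 14 were dim in every group. A further one, Wnt2b, was above the level in some groups only, which left Wnt4, Wnt5a, Wnt9a and Wnt16 above it throughout. Wnt16, a ligand known from bone, where it restrains the loss of cortical bone, ranged from 6.11 to 6.82 with a median of 6.50 in male PPE. Male sham aortae had 8.08, 7.73, 7.54, 6.78 and 7.75, so the groups overlapped only through male sham 4. Female values were 7.06, 6.74, 6.93 and 7.21 after PPE, all below the 7.66, 7.85 and 7.80 after sham. PPE and sham differed by −1.07 ± 0.17 in males (2.11-fold, adjusted p = 0.000194) and −0.79 ± 0.23 in females (1.72-fold, adjusted p = 0.0612). The female difference in Wnt16 was called without male sham 4 (adjusted p = 0.00994) or male sham 1 (0.0434), and without male sham 4, male sham 5 and male PPE 1 (0.00887). It was also called with quantile normalization of all arrays (0.0328) or within each sex (0.0416), and with the filter on dim genes (0.0425). Array weights (0.00212) and a fit of only the female arrays (0.0111) gave the call too. In 21 of the 29 alternative fits it was not called.

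Wnt5a, the main ligand of the polarity and calcium branches, was lower on average in both sexes without passing. Male PPE aortae averaged 7.45 ± 0.19 and male sham 7.79 ± 0.16, a difference of −0.34 ± 0.12 (adjusted p = 0.0614). Female PPE aortae averaged 8.07 ± 0.33 and female sham 8.46 ± 0.16, a difference of −0.39 ± 0.16 (adjusted p = 0.223). It was called in males without male sham 5 (adjusted p = 0.0335), male PPE 4 (0.0388) or female PPE 4 (0.0222), with the filter on dim genes (0.0444) and with only the male arrays fitted (0.0435). The female difference in Wnt5a was called without female PPE 4 (0.0279). Wnt4, a ligand of kidney and gonad development, was at −0.09 in both sexes, and Wnt9a at −0.24 in males and −0.22 in females. Wnt9a was called lower in males without male sham 4 (adjusted p = 0.0297), without male sham 4, male sham 5 and male PPE 1 (0.0278) and with array weights (0.0236). Wnt2b was called lower in males under those last 2 alternatives (0.0387 and 0.0303).

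Wnt3a, a ligand of the beta-catenin branch, was called lower in females although it was dim in all 4 groups. It had 4.58, 4.63, 4.70 and 4.66 in female PPE aortae, against 4.82, 5.13 and 5.07 in female sham (log2 difference −0.36 ± 0.10, adjusted p = 0.0412). In males it ranged from 4.35 to 4.73 with a median of 4.42 after PPE, against 4.40, 4.20, 4.25, 4.42 and 4.29 after sham, with overlap (0.15 ± 0.07, adjusted p = 0.18, and 0.0146 with median centring). The male response minus the female one was 0.52 ± 0.12 (adjusted p = 0.065). The female call was lost without any of 8 arrays, namely female sham 2 (0.228), female sham 3 (0.15), any of female PPE 1 (0.118), 2 (0.0895), 3 (0.0739) or 4 (0.0623), and male PPE 6 (0.0509) or 7 (0.0513), and with only the female arrays fitted (0.0528). The replicate block removed the female Wnt3a call too (0.0932). The other 17 ligand genes ranged from −0.34 to 0.17 in males and from −0.39 to 0.05 in females.

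Some of the secreted antagonists fell as well. Of the 10 Dickkopf, frizzled-related and Wif1 genes, Dkk3, Sfrp2 and Sfrp4 were called lower in males and Sfrp4 in females. Of all genes 9.97% were called lower in males and 1.46% in females. The median log2 difference of these 10 genes was −0.10 in males and −0.20 in females, with a range in males from −1.36 to 1.04. Dkk3, a divergent Dickkopf gene whose protein is not known to act on LRP6 as Dickkopf 1 does, showed the largest shift of the 48 genes in males. It ranged from 9.74 to 10.41 with a median of 10.20 in male PPE, against 11.83, 11.46, 11.27, 10.86 and 11.93 in male sham. Among females the values were 11.24, 11.13, 11.29 and 11.82 after PPE, against 12.33, 12.18 and 11.96 after sham. The groups did not overlap in either sex. This was a log2 difference of −1.36 ± 0.17 in males (2.57-fold, adjusted p = 2.01e-05) and −0.79 ± 0.23 in females (1.73-fold, adjusted p = 0.0619). The female difference was called without female PPE 4 (adjusted p = 0.025), male sham 4 (0.0261) or male sham 5 (0.0458), and without male sham 4, male sham 5 and male PPE 1 (0.0135). It was also called with quantile normalization of all arrays (0.0374) or within each sex (0.0332), and with the filter on dim genes (0.0431). Array weights (0.00845) and a fit of only the female arrays (0.0372) gave the call too. In 20 of the 29 alternative fits it was not called. The male response minus the female one was −0.57 ± 0.29 (adjusted p = 0.529).

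Sfrp4 (chromosome 13, 19623175 to 19632825, GRCm38.p6), a frizzled-related protein that in humans causes a bone disorder when lost, was lower in both sexes. It ranged from 14.32 to 15.87 with a median of 15.18 in male PPE, against 15.88, 16.25, 16.17, 15.41 and 16.14 in male sham, with overlap. Female values were 15.89, 15.64, 15.65 and 16.07 after PPE, against 16.89, 16.67 and 16.84 after sham, without overlap. The log2 difference was −0.79 ± 0.21 in males (adjusted p = 0.00959) and −0.99 ± 0.27 in females (1.98-fold, adjusted p = 0.0436). The female call rested on every female array but PPE 4, with adjusted p = 0.0888 to 0.157 without any of the other 6. It was also lost without male sham 1 (0.0542), male PPE 2 (0.0532), male PPE 4 (0.0554) or male PPE 7 (0.0512), with median centring (0.0695), and with an intensity trend and robust prior (0.0554). The replicate block removed it as well (0.0953).

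Sfrp2, a frizzled-related protein made by fibroblasts, fell in males. It ranged from 11.77 to 12.72 with a median of 12.27 in male PPE, against 13.30, 13.11, 12.74, 12.57 and 13.21 in male sham (log2 difference −0.70 ± 0.19, 1.62-fold, adjusted p = 0.0141). In females it was 12.10, 12.98, 11.75 and 12.10 after PPE, against 12.64, 12.50 and 12.69 after sham (−0.38 ± 0.25, adjusted p = 0.579). Both pairs of groups overlapped, and female PPE 2 lay above all female sham arrays. The male call was lost with the replicate block (adjusted p = 0.0838). The 9 fibroblast markers averaged 14.39 to 14.83 per array in male PPE, against 14.57 to 15.12 in male sham, with 5 called lower and 1 higher, and their part in the Sfrp2 values was not tested. Frzb, which is best known from cartilage, was at −0.33 ± 0.30 in males and −0.43 ± 0.39 in females, where female PPE 2 had 10.11 against 11.67 to 12.34 in the other PPE arrays.

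Sfrp1, a frizzled-related protein that binds WNT ligands at the cell surface and in the matrix, had the widest spread of the 48 genes among male sham aortae. The 7 male PPE aortae lay between 16.30 and 17.03 with a median of 16.63 and an SD of 0.31, against 15.36, 16.21, 17.73, 14.30 and 14.54 in male sham, an SD of 1.39. The PPE arrays thus lay within the range of the sham arrays and the difference of 1.04 ± 0.43 was not called (adjusted p = 0.111). It became 1.56 without male sham 3 (adjusted p = 0.00147) and 0.28 without male sham 4, male sham 5 and male PPE 1. The lowest Sfrp1 values, those of male sham 4 and 5, came with 8.89 and 8.72 of the clock gene Arntl, while male PPE arrays had 9.24 to 9.82 and the remaining male sham arrays 10.36 to 10.71. The clock gene Dbp was at 10.19 and 10.44 in male sham 4 and 5. It was at 7.33 to 7.91 in male PPE and 7.50 to 8.46 in the remaining male sham arrays. Among females Arntl was 8.89 to 9.02 after PPE, against 10.42 to 10.92 after sham, and Dbp was 10.27 to 11.01 against 8.31 to 9.42. The level of these clock genes and PPE thus cannot be told apart in females. In females Sfrp1 was 15.43, 16.21, 16.75 and 16.71 after PPE, against 16.39, 15.96 and 15.90 after sham (0.19 ± 0.57). The part of the clock in the Sfrp1 values, or in any other difference between PPE and sham in either sex, was not tested.

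The remaining antagonists gave no call in either sex. Dkk1 and Dkk4, inhibitors of LRP5 and LRP6, and Wif1 were dim in every group. Dkk2 was at −0.01 ± 0.23 in males and −0.28 ± 0.30 in females. Sfrp5, known from adipose tissue, was at −0.05 ± 0.13 in males and 0.19 ± 0.17 in females, and in male sham 4, the array with high adipocyte markers, it stood at 7.56 within the male sham range of 7.16 to 8.04.

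Rspo3, an R-spondin that endothelial cells release and that raises the response to WNT ligands, rose in females by more than any other of the 48 genes. It had 9.26, 8.44, 9.35 and 8.43 in female PPE aortae, against 7.66, 7.63 and 7.62 in female sham, so that the lowest PPE array lay well above the highest sham array. The log2 difference was 1.23 ± 0.22 (2.35-fold, adjusted p = 0.0052), and the call was kept in all 29 alternative fits. In males Rspo3 ranged from 7.51 to 8.39 with a median of 7.94 after PPE, against 7.42, 7.44, 7.87, 7.35 and 7.52 after sham, with overlap. That difference of 0.40 ± 0.17 was not called (adjusted p = 0.117), and it was called with quantile normalization within each sex (adjusted p = 0.0485). For Rspo3 the male minus the female response was −0.83 ± 0.28, with a 95% interval from −1.42 to −0.24. By limma over all genes its adjusted p was 0.251 (unadjusted 0.00873). Rspo2 and Rspo4 were dim in every group, and Rspo1 was at −0.20 in both sexes and was called lower in males without male sham 5 (adjusted p = 0.0467). Endothelial markers averaged 10.45 to 10.84 in male PPE, against 11.06 to 11.14 in male sham, and 11.17 to 11.46 in female PPE, against 11.29 to 11.76 in female sham arrays. Of these 9 markers 4 were called lower in males.

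The pathway readouts Lef1 and Axin2 were called in opposite directions in males, and in females Lef1 was called and Axin2 was not. Lef1, a TCF and LEF family factor that is also a gene of T cells, was higher after PPE in both sexes. In males it ranged from 5.07 to 5.96 with a median of 5.50 after PPE, against 5.06, 4.87, 4.59, 4.82 and 4.73 after sham. In females it was 6.37, 7.13, 7.76 and 6.57 after PPE, against 5.88, 5.70 and 6.22 after sham. The groups did not overlap in either sex, although the lowest male PPE array and the highest male sham array nearly met. The log2 difference was 0.68 ± 0.20 in males (1.60-fold, adjusted p = 0.0204, and 0.0527 without male sham 4, male sham 5 and male PPE 1) and 1.02 ± 0.26 in females (2.03-fold, adjusted p = 0.0297). The mean of both male groups lay under the background level, and in females only the PPE mean lay above it. The female call was lost without female sham 1 (0.109), female sham 2 (0.156), female PPE 2 (0.0793) or female PPE 3 (0.079), and with only the female arrays fitted (0.116). The replicate block removed the calls in males (0.0793) and in females (0.071).

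The 10 T and NK cell markers averaged 7.72 to 8.67 per array in male PPE, against 6.32 to 6.49 in male sham. In females they averaged 8.57 to 9.25 after PPE, against 7.35 to 7.79 after sham. Cd2 and Cd5 lay under the background level in male sham aortae. Lef1 was highest in female PPE 3 among the female arrays and in male PPE 3 among the male arrays. The part of T cells in the Lef1 values was not tested.

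Axin2, which beta-catenin signalling induces and whose protein then limits that signalling, fell in males. It ranged from 6.28 to 6.52 with a median of 6.47 after PPE, against 6.49, 6.66, 6.89, 6.99 and 6.59 after sham, with slight overlap (log2 difference −0.30 ± 0.08, 1.23-fold, adjusted p = 0.0163). The call was lost with quantile normalization (adjusted p = 0.0904), with median centring (0.0742), without male sham 4 (0.0537) and without male sham 4, male sham 5 and male PPE 1 (0.0807). It was also lost with the replicate block (0.0651). In females it was 6.60, 6.71, 6.86 and 6.92 after PPE, against 6.91, 6.91 and 6.97 after sham (−0.16 ± 0.11, adjusted p = 0.608).

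**Figure D2:**
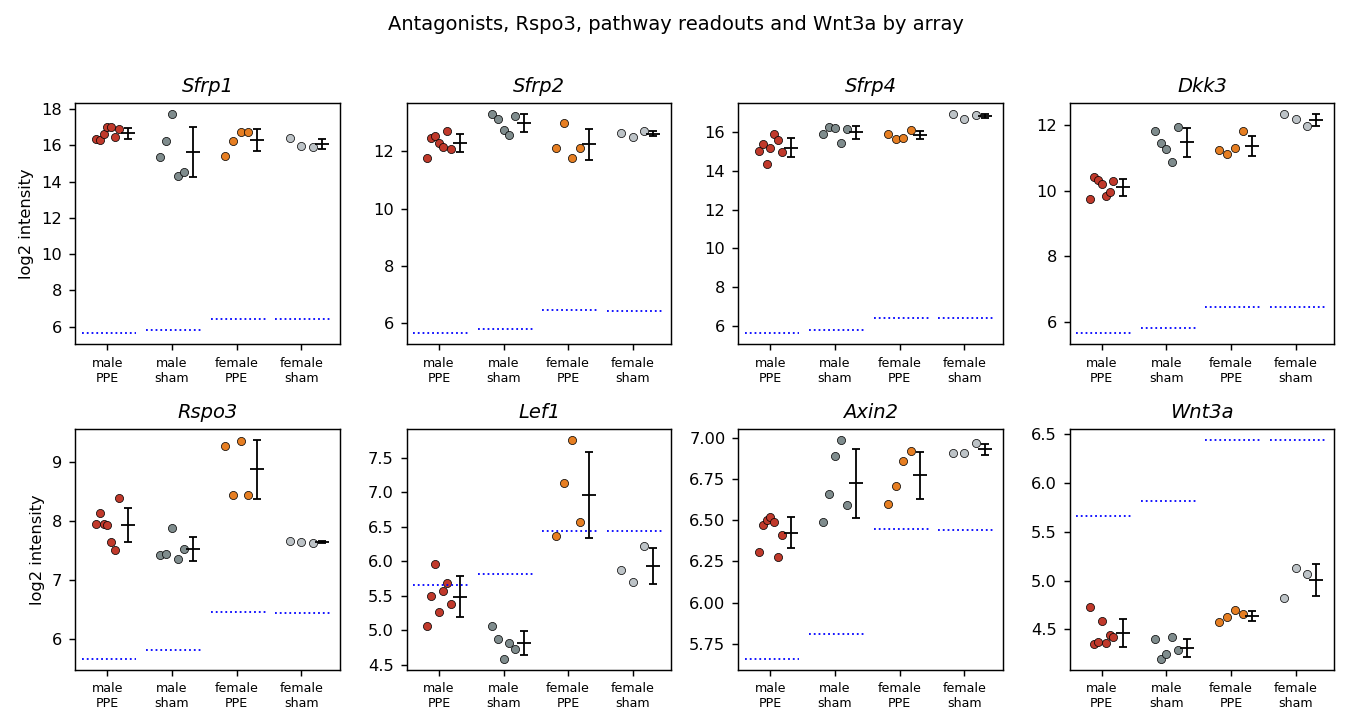
Log2 intensity of the frizzled-related genes Sfrp1, Sfrp2 and Sfrp4, and of Dkk3, Rspo3, Lef1, Axin2 and Wnt3a, with 1 point per array, for male PPE, male sham, female PPE and female sham aortae. Black bars show the mean and SD, and blue dotted lines the mean background level of each group; Rspo3 and Lef1 lie higher after PPE in females, Dkk3 lies lower in both sexes, Sfrp1 spans 14.30 to 17.73 in male sham, and all Wnt3a points lie under the dotted lines.

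Over the family, 12 of the 48 genes (25.0%) were called lower and 1 higher in males. Of all genes 9.97% were lower and 9.69% higher in males, 19.7% in either direction. In females 4 (8.33%) were lower and 2 higher. Of all genes 1.46% were lower and 2.79% higher in females, 4.25% in either direction. The median log2 difference over the 48 genes was −0.08 in males and −0.10 in females. In males the genes called lower were Axin2, Dkk3, Fzd2, Fzd4, Fzd6, Fzd7, Fzd8, Lrp5, Lrp6, Sfrp2, Sfrp4 and Wnt16, and Lef1 was higher. In females Fzd8, Lrp5, Sfrp4 and Wnt3a were lower, and Lef1 and Rspo3 higher. A second gene was called higher in males without male sham 3 (Sfrp1) or without male PPE 3 (Wnt9b), and with quantile normalization within each sex 2 genes were.

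The female count was unstable, and so was the count over all genes. The genes called lower in females numbered 0 without female sham 2, female PPE 2 or female PPE 3, 1 without female PPE 1, 2 without female sham 1, female sham 3 or male PPE 7, and 7 without male sham 4. They numbered 9 with quantile normalization within each sex and 2 with median centring. Of all genes 0.319% were lower without female sham 2, 0.792% without female PPE 2 and 0.625% without female PPE 3, beside 1.46% with all arrays. That share was 2.13% without male sham 4, 2.80% with quantile normalization within each sex and 0.901% with median centring. Only 1 gene, Rspo3, was called higher without female sham 1, female sham 2, female PPE 2 or female PPE 3. All genes called in females split into 65.7% higher with the values as deposited and 44.0% higher after quantile normalization, and in males into 49.3% higher as deposited and 60.4% after median centring. In males the groups did not overlap for 6 genes lower and 1 higher after PPE, beside 4.67% and 4.7% of all genes. In females they did not overlap for 12 lower and 2 higher, beside 8.86% and 11.0% of all genes (19.9% in either direction).

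The female aortae, whose group means share no sample with the male ones, gave the same direction for all 12 genes called lower in males. In females 8 of them had an unadjusted p below 0.05 from limma and 3 were called. The female tests use the residual variance shared with the male arrays, so those p values are not independent of the male calls. Of all 2997 genes called lower in males 75.5% were also lower in females, 1092 at an unadjusted p below 0.05 and 394 called. Of the 4 genes called lower in females 3 (75.0%) were also lower in males and Wnt3a was not, beside 97.7% of all 438 genes called lower in females. The test of the difference between the sexes in their response to PPE called 0 of the 48 genes with limma, beside 0.542% of all genes (0.0399% with a positive and 0.502% with a negative difference), and 3 had an unadjusted p below 0.05, namely Fzd7, Rspo3 and Wnt3a. Sex and the mice, surgery or arrays of each sex cannot be told apart in that test.

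**Figure D3:**
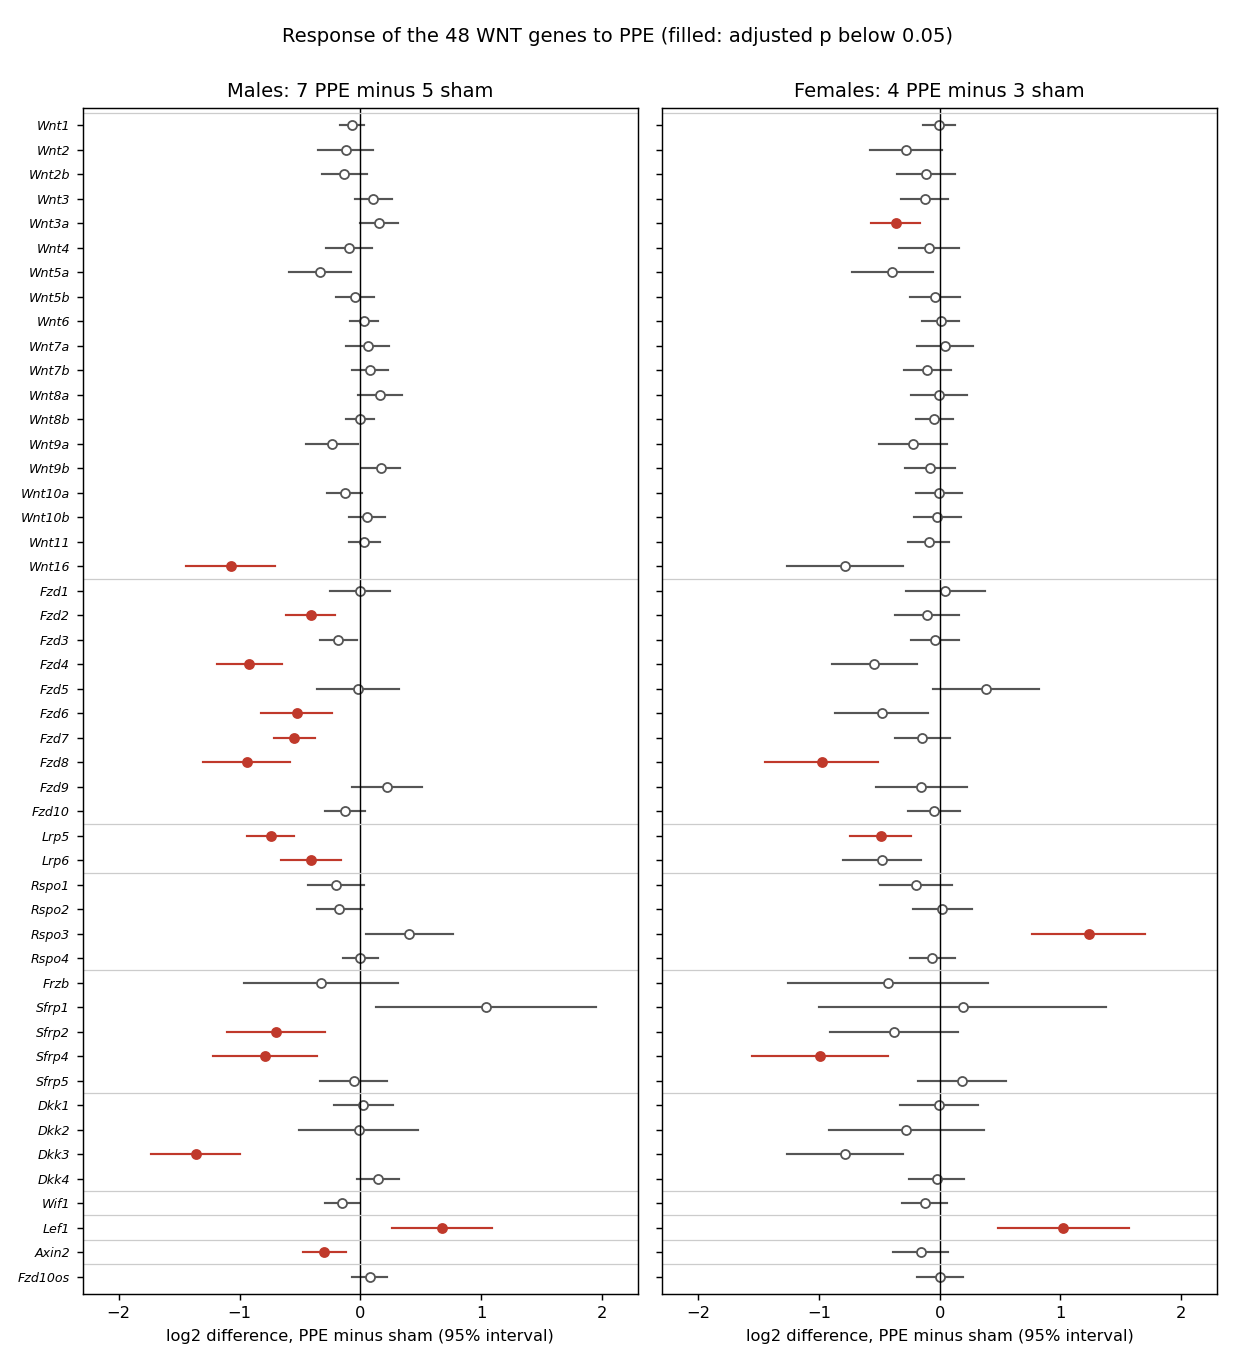
Log2 difference (PPE minus sham) with its 95% interval from limma for each of the 48 genes, in males at left and females at right, grouped by role from the ligands at the top to the readouts at the bottom. Filled red points are the 13 genes called in males and the 6 called in females; most ligands lie near 0, and the called receptors lie left of it.

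The rest of the pathway was read from 5 lists of other genes, of which 80 were measured. Apcdd1, Rnf43, Dvl2, Ctnnb1 (the gene of beta-catenin), Tcf7 and Ccnd1 were listed but had no probe set with a single gene symbol. In males 28 of the 80 measured genes were lower and 4 higher after PPE, beside 9.97% lower and 9.69% higher of all genes. In females 4 were lower and 76 were not called, beside 1.46% lower and 2.79% higher of all genes. The counts in males below stand beside the same 9.97% and 9.69%. The genes lower in both sexes were Gpc6, Lgr6, Nkd1 and Daam1. Over the 80 genes the median log2 difference was −0.18 in males and −0.07 in females.

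Among genes for secretion and extracellular modifiers 6 of 14 fell in males. Sost, which encodes the LRP5 and LRP6 inhibitor sclerostin, fell to a mean of 6.09 in male PPE, against 8.47 in male sham (−2.39 ± 0.33, adjusted p = 4.1e-05), and stood at −1.33 ± 0.43 in females (adjusted p = 0.102). Sulf1, which trims sulfate from heparan sulfate chains, was at −1.21 in males, and Gpc6, a glypican that carries such chains, at −1.20 in males and −1.13 in females (adjusted p = 0.00831). Of the other receptors and their turnover genes 6 of 14 fell in males. Lgr6, a receptor for R-spondins, averaged 6.33 in male PPE, against 7.98 in male sham (−1.65 ± 0.19), and 7.07 in female PPE, against 8.21 in female sham (−1.15 ± 0.25, adjusted p = 0.013). Reck, which is a protease inhibitor as well as a partner of the WNT7 receptor complex, was at −1.17 in males, and Ror1, a receptor for WNT5A, at −0.68.

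Of the cytoplasmic and nuclear genes 8 of 21 fell and 1 rose in males. The largest were Tcf7l1 (−0.79), a TCF factor that mostly represses, the corepressor gene Tle1 (−0.69) and Pygo1 (−0.64), while Tle4, another corepressor, rose by 0.60. Tcf7l2, a further TCF factor, was also called lower in males (−0.33, adjusted p = 0.00335). Its mean was 8.46 in male PPE and 8.79 in male sham, so that Tcf7l1 and Tcf7l2 fell where Lef1 rose. Of the polarity and calcium genes 7 of 19 fell and 1 rose in males. Daam1, a formin that links Dishevelled to actin, was at −0.76 in males and −0.76 in females (adjusted p = 0.00748). Plcb1, a phospholipase of the calcium branch, was at −0.68 in males (adjusted p = 0.0028) and −0.29 in females, and Nfatc2, a factor that is also active in T cells, rose by 0.68 in males. Of 12 feedback and target genes 2 rose and 1 fell in males, shares near those of all genes. The feedback inhibitor gene Nkd1, whose protein binds Dishevelled, was at −0.93 ± 0.11 in males and −0.59 ± 0.15 in females (adjusted p = 0.0272). Cd44 (1.19) and Myc (0.52), which many inflammatory and proliferating cells also express, rose in males.

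**Figure D4:**
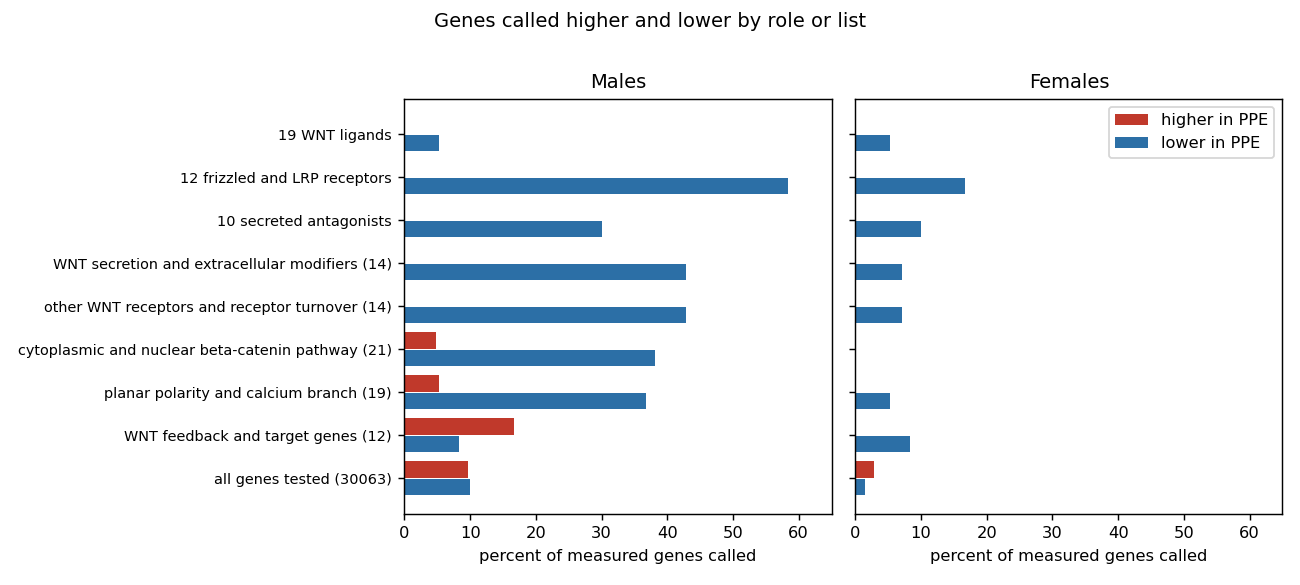
Percent of measured genes called higher (red) and lower (blue) after PPE, in males and females, for the WNT ligands, the receptors and the secreted antagonists, for 5 lists of other pathway genes and for all 30063 genes tested, with the number of genes in each label. In males the receptors stand at 7 of 12 lower, beside 9.97% of all genes, and in females at 2 of 12, beside 1.46%.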

How the data were processed

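The authors deposited 1 table of log2 intensities for the 19 arrays. The submitters' processing notes name the Transcriptome Analysis Console and the build mm10; the version, background correction and summarisation are not stated there. Of 65956 probe sets, 30604 carried 1 gene symbol in the platform annotation, updated through RefSeq, and the brightest per gene was kept. This left 30063 genes, tested without a filter on low values.

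The means of the 4 groups, taken from the titles, were fitted with limma 3.58.1 in R 4.3.3 (lmFit, eBayes), two-sided, with 1 residual variance per gene shared by all 19 arrays. Genes were called at an adjusted p below 0.05. The procedure was tested on simulated data.

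The genes and lists were chosen with earlier results of these data known. Members called in either sex were described array by array. Others were named at an absolute difference of at least 0.5 or as the brightest or dimmest of their role, and pathway genes when called in both sexes or among the 3 largest called changes per list and sex. Arntl, Dbp, Tle4, Tcf7l2, Wnt2b, Wnt4, Wnt5a, Wnt9a, Frzb, Sfrp5, Dkk2, Rspo1 and the uncalled frizzled genes were named after their values were seen. The number of mice limits the precision. Alternatives were other normalizations, a filter on dim genes, the mean of probe sets, other variance models, only the groups compared, a replicate block, 3 male arrays left out, and each array left out in turn.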

Additional observations from a re-analysis of the deposited data

Results flagged for a closer look

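Within the groups of 4 to 7 arrays, 6 of 144 sets of values held an array whose gap to its nearest neighbour was large for the range of its group. Chance flags about 1 in 20 such sets. Fzd8 in male PPE 1 stood at 6.31 against 6.87 to 7.18 in the other male PPE arrays. Fzd1 in male sham 3 was at 10.46, above the 9.97 to 10.08 of its group. The other 4 concerned genes that were dim in every group. They were Dkk4 in male sham 5 (4.28 against 4.51 to 4.60), Fzd10os in male PPE 1 (4.72 against 4.33 to 4.44), Wnt6 in male PPE 3 (4.40 against 4.62 to 4.69) and Wnt7b in male PPE 4 (4.97 against 4.59 to 4.75).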

How the results depend on the processing

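Directions did not reverse for any of the 23 responses followed under the 29 alternatives (28 for Wnt3a, which the filter on dim genes removed). This is a weak check. Some alternatives cannot move an estimate, such as leaving out an array of the other sex or adding an intensity trend. The 23 were also chosen because they were called or had an absolute difference of at least 0.5. In males Dkk3, Fzd4, Fzd7, Fzd8, Lrp5, Sfrp4 and Wnt16 kept their calls throughout, as did Rspo3 in females. Same-numbered PPE and sham arrays were separate mice whose deviations correlated between −0.321 and 0.242, above 0.1 in 2 of 8 pairs. The labels do not say whether a shared number stands for a shared day or litter. Such correlations cannot exclude it, and the main fit left the arrays unpaired. With the replicate block 7 genes were lower and 0 higher in males, 0 lower and 1 higher in females, and 3525 and 639 of all genes were called in males and females, against 5911 and 1277. Genes higher in males numbered 2 with quantile normalization within each sex or median centring and 0 without male sham 4, male sham 5 and male PPE 1. Genes lower in females numbered 8 with quantile normalization of all arrays or without those 3 male arrays, 9 with quantile normalization within each sex or array weights, 2 with median centring and 7 with only the compared groups, where 1 was higher. All genes called in females numbered 3955 with array weights, 1970 with only the compared groups and 2451 without the 3 male arrays. Those lower made up 5.69%, 2.11% and 3.28% of all genes in these 3 fits, and 2.84% with quantile normalization of all arrays. The difference between the sexes called 1 of the 48 genes, Wnt3a, with either quantile normalization or median centring, and 2, Fzd7 and Wnt3a, with array weights. Without 1 array in turn, males had 1 to 2 genes higher and 11 to 15 lower and 4949 to 6350 of all genes called, females had 1 to 2 higher and 0 to 7 lower and 368 to 1614 of all genes called, and the difference called 0 throughout. Genes near background limit what these arrays can show, since 21 of the 48 were dim in every group.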
